A study of Mus musculus with 6 samples.

Results

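The genes described here encode the folding and quality-control machinery of the endoplasmic reticulum (ER), the sensors that regulate it, and the helpers that fold procollagen. They were taken by symbol from a fixed list of 37 names, chosen with earlier results of these data known. All 37 had a row among the 31401 genes of the deposited count table and were deep enough to be tested. The libraries were mRNA sequencing of primary calvarial osteoblasts, the bone-forming cells of the skull, from 3-day-old wild-type C57BL/6 mice. All cultures spent 6 days in osteogenic induction medium, 3 samples without ZM (control) and 3 with 10 μM ZM, and all carry the same batch label. ZM is the compound the study names ZM-306416, known as an inhibitor of VEGF receptor and EGF receptor kinases. Whether samples within a group came from separate cultures or animals is not stated, so each p-value reflects the spread between these 6 samples, possibly technical.

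Osteoblasts secrete large amounts of type I collagen, and every chain passes through the ER. There, chaperones of the heat shock families, lectin chaperones and protein disulfide isomerases fold the chains, and a collagen-specific set modifies prolines and holds the triple helix together. When unfolded protein accumulates, the sensors IRE1 (gene Ern1), PERK (Eif2ak3) and ATF6 start the unfolded protein response (UPR), which raises the transcription of chaperones and of ER-associated degradation (ERAD), the route by which misfolded proteins are sent to the proteasome. ATF6 and XBP1, the factor made from the transcript that IRE1 splices, are known to act through ER stress response elements near the start sites of chaperone genes.

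That element (ERSE) is spelled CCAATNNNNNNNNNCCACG, and a shorter form (ERSE-II) is ATTGGNCCACG. Both were searched on both strands in the RefSeq promoter windows of GRCm38.p6, the assembly also called mm10, which run from 250 bases before to 50 bases after each start. Windows were given for 30 of the 37 members. The ERSE was in 9 of these 30 genes, against 0.137% of the 27025 genes with a window (0.119% of 32851 windows). The ERSE-II was in 2 of the 30, against 0.0444% of all genes with a window. These elements are known from chaperone genes, and the list was chosen to hold such genes. The higher shares can follow from that choice and are no test of the elements. The elements are shown because these 11 members, of more than 1 role, hold them; capitals mark the bases the motif fixes, each is written 5′ to 3′ in the orientation of the motif, and the box at the right end, CCACG, is part of both motifs:
Hspa5, chr2:34772025-34772043: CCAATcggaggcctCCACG
Hsp90b1, distal, chr10:86705638-86705656: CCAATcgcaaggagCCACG
Hsp90b1, proximal, chr10:86705533-86705551: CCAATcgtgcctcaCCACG
Dnajc3, chr14:118937827-118937845: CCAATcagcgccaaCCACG
Creld2, chr15:88819520-88819538: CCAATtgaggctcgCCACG
Calr, chr8:84847075-84847093: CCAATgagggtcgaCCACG
Canx, chr11:50325800-50325818: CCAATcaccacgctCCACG
Pdia6, chr12:17266491-17266509: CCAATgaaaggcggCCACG
Syvn1, chr19:6046532-6046550: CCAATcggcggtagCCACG
Derl3, chr10:75893242-75893260: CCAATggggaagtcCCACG
Herpud1 (ERSE-II), chr8:94386377-94386387: ATTGGgCCACG
Dnajb11 (ERSE-II), chr16:22857852-22857862: ATTGGcCCACG

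Hsp90b1 held 2 copies, facing opposite ways. The Hspa5 element began 65 bases before the RefSeq start, that of Syvn1 44 bases and the distal Hsp90b1 element 212 bases before theirs. In the GENCODE annotation, used for the gene positions below, Hspa5 starts at chr2:34771970. That lies upstream of the Hspa5 element, so the annotated starts disagree. The 5-base box alone was common, in 24 of the 30 members and in 35.5% of all genes with a window. A further motif, the UPR element core TGACGTGG, was in 1 member, the coat protein gene Sec24d, and in 0.714% of all genes. A match describes letters in the window and does not show that a factor is bound there. No window was used for Hyou1, Manf, Atf6, Creb3l1, Derl1, Sec61a1 and Fkbp10. The 250 bases before the start are printed for 3 genes to show the elements in place, with ERSE, ERSE-II and single CCACG boxes in capitals on either strand:
Hspa5, chr2:34771840-34772089, plus strand: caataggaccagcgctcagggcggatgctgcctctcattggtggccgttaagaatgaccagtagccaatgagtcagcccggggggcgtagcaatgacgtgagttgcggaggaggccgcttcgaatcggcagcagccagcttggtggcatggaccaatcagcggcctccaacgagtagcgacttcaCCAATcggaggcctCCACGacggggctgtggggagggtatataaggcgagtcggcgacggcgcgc
Hsp90b1, chr10:86705445-86705694, minus strand: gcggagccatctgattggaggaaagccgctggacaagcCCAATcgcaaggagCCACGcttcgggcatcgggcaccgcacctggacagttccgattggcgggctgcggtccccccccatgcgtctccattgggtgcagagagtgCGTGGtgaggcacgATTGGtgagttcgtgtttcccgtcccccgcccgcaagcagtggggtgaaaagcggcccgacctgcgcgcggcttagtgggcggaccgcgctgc
Herpud1, chr8:94386179-94386428, plus strand: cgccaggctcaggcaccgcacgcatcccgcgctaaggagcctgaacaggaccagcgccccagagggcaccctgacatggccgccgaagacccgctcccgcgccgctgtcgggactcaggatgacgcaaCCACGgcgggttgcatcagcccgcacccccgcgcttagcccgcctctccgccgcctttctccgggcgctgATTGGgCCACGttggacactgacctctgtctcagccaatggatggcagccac

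**Figure D1:**
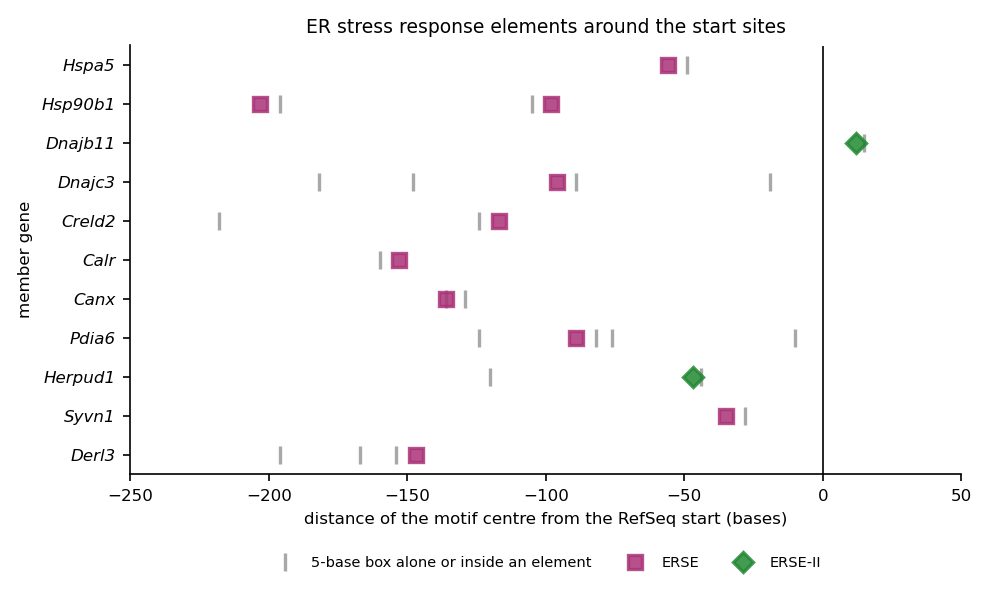
Positions of ERSE (squares), ERSE-II (diamonds) and the 5-base box (ticks) in the 11 member genes that hold an ERSE or ERSE-II. The x axis gives the distance of each motif's centre from the RefSeq start in bases, with the start at 0; 10 of the 11 genes have the element before the start, and that of Dnajb11 lies just after it.

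With ZM the ER chaperones and disulfide isomerases fell, by small amounts, while procollagen folding genes, sensors and ERAD genes were split. Of the 37 members 22 fell and 6 rose, and 9 did not pass an adjusted p of 0.05 (edgeR's quasi-likelihood test, adjusted over all genes tested). That is 75.7% of the members called, beside 45.3% of the 17533 genes tested (22.8% higher and 22.4% lower). The median log2 fold change of the members was -0.17, beside -0.00 for all genes tested. At a fold change of at least 1.2, 10 of the 37 members were called, 9 of them lower. Over all genes tested 29.7% were called at that size, so with both directions together the members were not called more often there. The directions differed: 51.6% of those calls over all genes were higher, beside 1 of the 10 member calls. On CPM (counts relative to TMM-scaled library size) the groups did not overlap in 28 members, 21 lower and 7 higher, beside 54.2% of all genes tested (26.4% lower and 27.8% higher). The 45.3% used as background here and below includes genes of low level. With a mean of at least 1 CPM required, 53.6% of all genes were called, and again 22 members fell and 6 rose. A background matched to the levels of the members was not tested. The balance of calls depended on the scaling: 50.4% of all called genes were higher with TMM and 62.2% with library size alone. With library size alone the median of all genes was 0.06, 17 members fell and 8 rose.

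Library totals were 42721326 to 69867931 counts. Libraries of 1 group correlated at 0.992 to 0.994 (log2 CPM), those of different groups at 0.977 to 0.979. The collagen genes of osteoblasts were abundant, but the late markers Ibsp and Bglap were nearly absent. Ibsp averaged 0.0685 CPM per kilobase in control and 0.114 in ZM samples, and Bglap 0.194 and 0.101. The summed osteoblast list, dominated by Spp1, which fell, was 12121 to 12577 CPM per kilobase in control and 6198 to 6435 in ZM samples. Of the 8 tested genes of that list 4 rose: Alpl (log2 fold change 3.58), Sp7 (0.85), Sparc (0.35) and Runx2 (0.29). Only 1, Spp1, fell, and 3 were not called. The cultures also held macrophage transcripts. All 12 macrophage markers, 0 of them at 0 in any library, fell (median log2 fold change -0.63). Their summed level, dominated by Lyz2, was 14397 to 15053 CPM per kilobase in control and 7529 to 8383 in ZM samples. All 8 osteoclast markers rose (median log2 fold change 3.33), with sums of 304 to 328 CPM per kilobase in control and 544 to 558 in ZM samples. Those sums are mostly Ctsk, which had the smallest rise of the 8 (0.42). Of the markers of plasma cells, which are rich in these chaperones, Jchain averaged 0.0369 CPM per kilobase in control and 0.0695 in ZM samples, and Mzb1 0.00897 and 0.00941; Tnfrsf17 averaged 0.0315 and 0.0360. The other two markers of that list were tested: Sdc1 fell from 46.1 ± 1.69 to 40.1 ± 0.994 CPM per kilobase (adjusted p = 2.94e-04, edgeR), and Prdm1 rose from 0.625 ± 0.0946 to 1.33 ± 0.0349 (adjusted p = 9.18e-07, edgeR). In these bulk samples fewer cells of a type and less RNA per cell cannot be told apart, and the part of the macrophage and osteoclast transcripts in the results below was not tested.

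**Figure D2:**
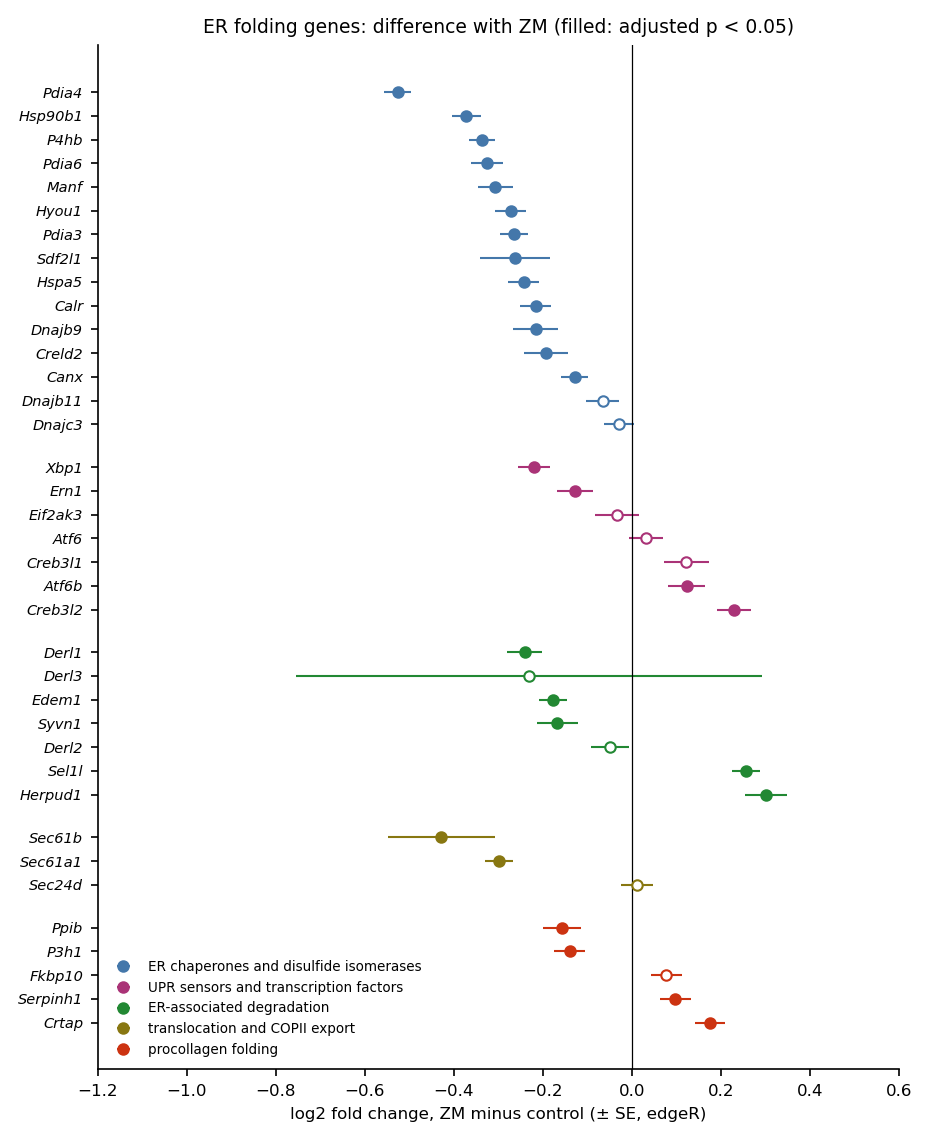
Log2 fold change of each of the 37 members (x axis, ZM minus control, with its SE from edgeR), grouped by role and ordered within each role. Filled points passed an adjusted p of 0.05, as 45.3% of all genes tested did. Of the 15 chaperones and isomerases 13 lie left of 0 as filled points. The other roles have filled points on both sides, except translocation and export.

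Among the chaperones and isomerases 13 of 15 fell and 0 rose (median log2 fold change -0.26). That is 86.7% called, beside 45.3% of all genes tested. With library size alone 12 fell and 0 rose. All 15 had a fold change below 0 with TMM, and Dnajc3 was above 0 with library size alone and on FPKM. Summed over the 15 genes, the level averaged 2251 ± 35.8 CPM per kilobase without ZM and 1870.2 ± 30.2 with it (SD, n = 3 each). CPM per kilobase is the TMM-scaled CPM divided by the gene length in kilobases, so that levels can be compared between genes, though only roughly. For the members this length equals that of all their annotated exons merged (GENCODE). Several of these genes were abundant: Calr, P4hb, Pdia3 and Hspa5 stood at ranks 57, 69, 91 and 122 among all genes in control samples.

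Pdia4, a disulfide isomerase of the large chaperone complexes of the ER (chr6:47796141-47813430, minus strand, mm10), was lowest relative to control. Its level in samples 1, 2 and 3 was 128, 128 and 129 CPM per kilobase for control and 88.8, 89.9 and 88.7 for ZM, an order of samples kept for all genes below. The groups were far apart relative to their spread, and ZM was 30.6% lower (log2 fold change -0.53 ± 0.03, SE; adjusted p = 6.5e-10, edgeR). Its fold change ranked at percentile 11.1 among all genes tested, so larger falls were common elsewhere in these libraries. P4hb, which is both the isomerase PDI and the beta subunit of collagen prolyl 4-hydroxylase (chr11:120560298-120573253), had 409.9, 406 and 407 CPM per kilobase in control and 319.7, 325 and 324 in ZM samples. Every ZM sample was below every control sample (-0.34 ± 0.03, adjusted p = 8.88e-08, edgeR). Pdia6, which is known to attenuate IRE1, fell by 0.32 and Pdia3, the isomerase that works with the lectin chaperones, by 0.26 on the log2 scale, both without overlap of the groups.

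Hspa5 encodes BiP, the chaperone that holds the sensors inactive and the textbook readout of the UPR (chr2:34771970-34777547, plus strand). Its level was 248, 259 and 243 CPM per kilobase in control samples and 215, 216 and 204 in ZM samples. The highest ZM sample lay below the lowest control sample, a fall of 15.5% (-0.24 ± 0.03, adjusted p = 2.38e-05, edgeR). Hsp90b1, the ER member of the heat shock family that chaperones integrins and Toll-like receptors, had 182, 186 and 177 CPM per kilobase in control and 140.2, 142 and 139 in ZM samples. The groups were separate, and the fall was 22.7% (-0.37 ± 0.03, adjusted p = 6.94e-08, edgeR). Other annotated genes overlap 15.7% of the Hsp90b1 exon length, so its level carries that uncertainty. Hyou1, the nucleotide exchange factor of BiP, fell from 29.1 ± 0.951 to 24.1 ± 0.569 CPM per kilobase (SD, n = 3 each; adjusted p = 9.17e-06, edgeR).

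The BiP cofactors were not uniform. Dnajb9, a J-protein induced by XBP1 that restrains IRE1, fell by 0.22 ± 0.05 on the log2 scale (adjusted p = 0.00203, edgeR), and was not called by limma on log2(FPKM + 1) with no filter (adjusted p = 0.11). Dnajb11, a J-protein for newly made chains, was at 43.1 ± 1.31 and 41.2 ± 1.24 CPM per kilobase (SD, n = 3 each; adjusted p = 0.174, edgeR), with overlapping groups. Dnajc3, known as the PERK inhibitor P58, was at 48.0 ± 0.866 and 47.1 ± 1.05 CPM per kilobase (adjusted p = 0.52, edgeR), also overlapping. Manf, a secreted ER protein induced by stress, had 31.7, 32.6 and 29.8 CPM per kilobase in control and 25.1, 25.6 and 25.4 in ZM samples. Its groups did not overlap (-0.31 ± 0.04, adjusted p = 7.74e-06, edgeR), although other genes overlap 9.25% of its exon length. Creld2, a further stress-induced ER protein, fell by 0.19 ± 0.05 on the log2 scale (adjusted p = 0.00398, edgeR), a call lost by limma on the unfiltered FPKM values (adjusted p = 0.0679).

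Sdf2l1, a partner of the J-proteins, had 25.1, 28.6 and 27.2 CPM per kilobase in control and 22.1, 25.3 and 20.1 in ZM samples. ZM sample 2 lay just above control sample 1, so the groups overlapped. It was called (-0.26 ± 0.08, adjusted p = 0.016, edgeR), but not on the FPKM values, and not when control sample 2 or 3 or ZM sample 1 or 3 was left out (adjusted p between 0.0547 and 0.07). Of the lectin chaperones that hold glycoproteins, calreticulin, Calr, had 442, 474 and 461 CPM per kilobase in control and 395, 405 and 385 in ZM samples. It was the most abundant of the 37 in control samples and fell without overlap (-0.22 ± 0.03, adjusted p = 7.77e-05, edgeR). Its membrane-bound counterpart calnexin, Canx, fell by 0.13 ± 0.03, which library size alone did not call (-0.07, adjusted p = 0.0731, edgeR).

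**Figure D3:**
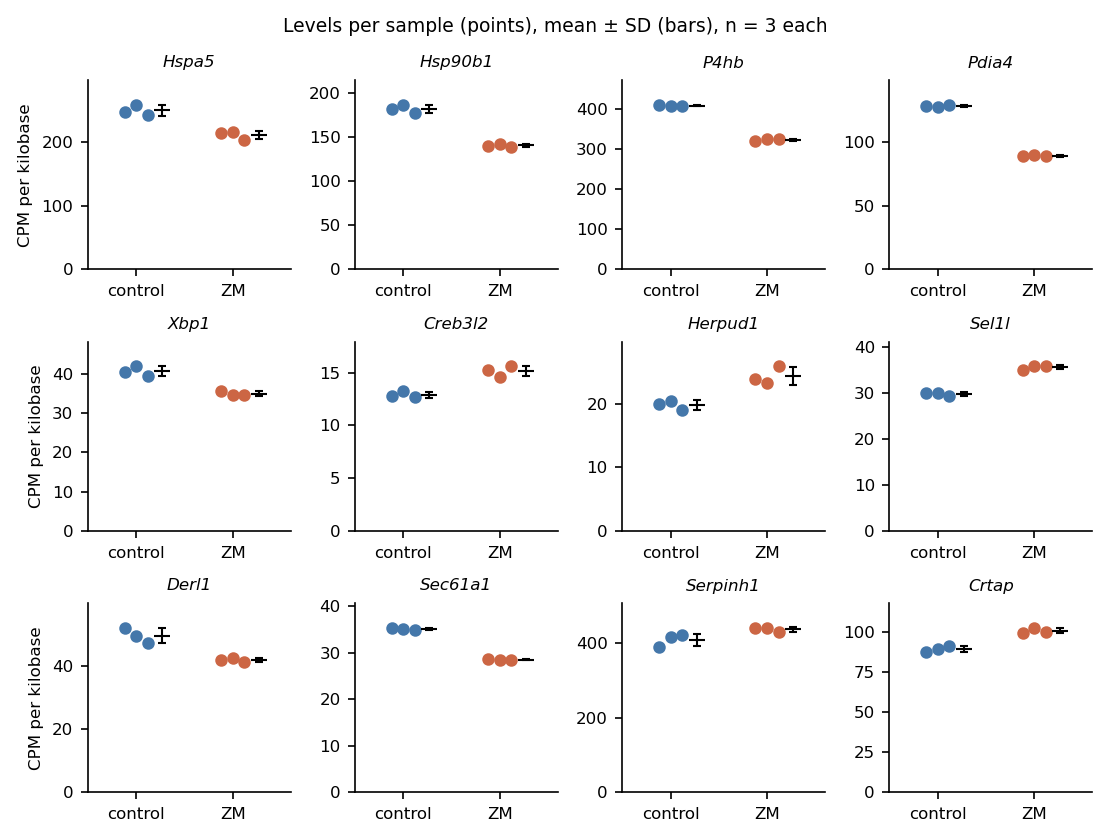
Levels of 12 members in CPM per kilobase (y axes start at 0) in each control and ZM sample, with the mean and SD beside the points (n = 3 each). All 12 come from the members whose groups do not overlap (21 lower and 7 higher, beside 54.2% of all genes tested). The 9 members with overlap are not shown. The ZM points are lower for Hspa5, Hsp90b1, P4hb, Pdia4, Xbp1, Derl1 and Sec61a1 and higher for Creb3l2, Herpud1, Sel1l, Serpinh1 and Crtap.

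The sensors and transcription factors were split, with 2 of 7 higher, 2 lower and 3 not called (median log2 fold change 0.03). That is 57.1% called, beside 45.3% of all genes tested. With library size alone 3 were higher and 1 lower. Xbp1, the transcription factor made active by IRE1 (chr11:5520659-5525893), had 40.6, 42.0 and 39.6 CPM per kilobase in control and 35.7, 34.6 and 34.7 in ZM samples. All ZM samples were lower (-0.22 ± 0.04, adjusted p = 1.04e-04, edgeR). Gene counts hold no information on the spliced form of Xbp1, on cleavage of ATF6 or on phosphorylation of the sensors. Ern1, the IRE1 gene itself, was at 7.27 ± 0.213 and 6.66 ± 0.0994 CPM per kilobase (-0.13 ± 0.04, adjusted p = 0.0174, edgeR). Ern1 lost its call when library size alone set the scale (adjusted p = 0.192), in limma on FPKM (between 0.175 and 0.297), and when control sample 2, ZM sample 1 or ZM sample 3 was left out (between 0.0604 and 0.0801).

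The other sensor genes did not pass. Eif2ak3, the PERK gene, had 7.61, 8.08 and 7.84 CPM per kilobase in control and 7.63, 7.18 and 8.20 in ZM samples, and Atf6 11.84, 11.45 and 11.03 against 11.47, 11.56 and 12.04. The groups overlapped for both (adjusted p = 0.632 and adjusted p = 0.539, edgeR). The opposite-strand gene Gm43292 overlaps 8.05% of the Eif2ak3 exon length, so the level of Eif2ak3 carries that uncertainty. Atf6b, the close relative of Atf6, rose by 0.12 ± 0.04 (adjusted p = 0.0215, edgeR), a call lost with DESeq2 (adjusted p = 0.0514) and when control sample 1 or 2 or ZM sample 1 was left out (between 0.051 and 0.121).

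Creb3l2 and Creb3l1 encode ER-anchored transcription factors, cleaved like ATF6; in mice, Creb3l1, also called OASIS, is known to drive type I collagen transcription in osteoblasts, and Creb3l2 to drive Sec23a in cartilage. Creb3l2 (chr6:37327255-37442146) had 12.8, 13.2 and 12.7 CPM per kilobase in control and 15.2, 14.6 and 15.6 in ZM samples. All ZM samples were higher (0.23 ± 0.04, adjusted p = 1.08e-04, edgeR). Creb3l1 had 27.1, 28.7 and 30.6 CPM per kilobase in control and 33.0, 29.4 and 31.8 in ZM samples. Its groups overlapped through ZM sample 2 (0.12 ± 0.05, adjusted p = 0.0636, edgeR), and it passed when control sample 3 (adjusted p = 0.0205) or ZM sample 2 (0.0142) was left out, when library size alone set the scale (0.00984) and when low counts were not filtered (0.0187). It also passed in limma on FPKM where a mean FPKM of at least 1 was required, but not on unfiltered FPKM.

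ERAD genes moved in both directions, with 3 of 7 lower, 2 higher and 2 not called (median log2 fold change -0.17). That is 71.4% called, beside 45.3% of all genes tested. Herpud1, a membrane protein that assembles the degradation complex and a strong UPR target (chr8:94386438-94395377), had 20.0, 20.5 and 19.0 CPM per kilobase in control and 23.9, 23.3 and 26.0 in ZM samples. It was the member with the largest rise, 23.2% (0.30 ± 0.05, adjusted p = 6.74e-05, edgeR), with separate groups. Sel1l, the adaptor of the same complex (chr12:91806043-91849157), had 30.1, 29.9 and 29.4 CPM per kilobase in control and 35.1, 35.8 and 35.8 in ZM samples. It rose by 19.4% (0.26 ± 0.03, adjusted p = 4.73e-06, edgeR). Syvn1, the ubiquitin ligase that works with Sel1l and is also called HRD1, was at 11.1 ± 0.478 and 9.89 ± 0.347 CPM per kilobase and fell (-0.17 ± 0.05, adjusted p = 0.00621, edgeR), a call lost when library size alone set the scale (adjusted p = 0.0714).

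Edem1, the lectin that picks trimmed glycoproteins for degradation, fell from 31.2 ± 0.479 to 27.6 ± 0.185 CPM per kilobase (adjusted p = 2.71e-04, edgeR). Derl1, a derlin of the exit channel, had 52.1, 49.4 and 47.3 CPM per kilobase in control and 42.0, 42.6 and 41.4 in ZM samples, with separate groups (-0.24 ± 0.04, adjusted p = 7.62e-05, edgeR). Its relative Derl2 overlapped between the groups at 8.61 ± 0.304 and 8.33 ± 0.311 CPM per kilobase (adjusted p = 0.386, edgeR). Derl3, the third derlin, had only 10, 19 and 14 counts in control and 6, 20 and 6 in ZM samples, too few at this depth to show a difference of the size seen in the other members.

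Of the translocation and export genes 2 of 3 fell (66.7% called, beside 45.3% of all genes tested), and 3 genes are too few to describe the role. Sec61a1 encodes the pore through which new chains enter the ER (chr6:88503579-88518905), and had 35.36, 35.01 and 34.89 CPM per kilobase in control and 28.7, 28.3 and 28.5 in ZM samples. All ZM samples were lower by a wide margin (-0.30 ± 0.03, adjusted p = 7.85e-07, edgeR); 17.4% of its transcript is near-identical to the opposite-strand gene Gm44170, so its level carries that uncertainty. Sec61b, a small subunit of the pore, had 45.7, 53.2 and 54.4 CPM per kilobase in control and 41.1, 40.5 and 32.5 in ZM samples. The groups were separate but scattered, and the call (-0.43 ± 0.12, adjusted p = 0.0371, edgeR) was lost when control sample 2 or 3 or ZM sample 2 was left out (adjusted p between 0.0644 and 0.122) and on unfiltered log2(FPKM + 1) (0.0744). Its transcript matches Gm10320 over 22.8% of its length, so reads may be split between them. Sec24d, the cargo adaptor of the COPII coat that procollagen needs to leave the ER, was at 32.1 ± 1.00 and 32.3 ± 0.754 CPM per kilobase, with overlapping groups (adjusted p = 0.812, edgeR).

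Spread within groups was small for most members, with a median SD of 0.04 in log2 CPM. It was widest for Derl3 (0.56), Sec61b (0.17) and Sdf2l1 (0.14). Sec61b and Sdf2l1 have lengths of 1271 and 1108 bases in the authors' table, and both were lowest in ZM sample 3 and, within controls, in control sample 1.

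**Figure D4:**
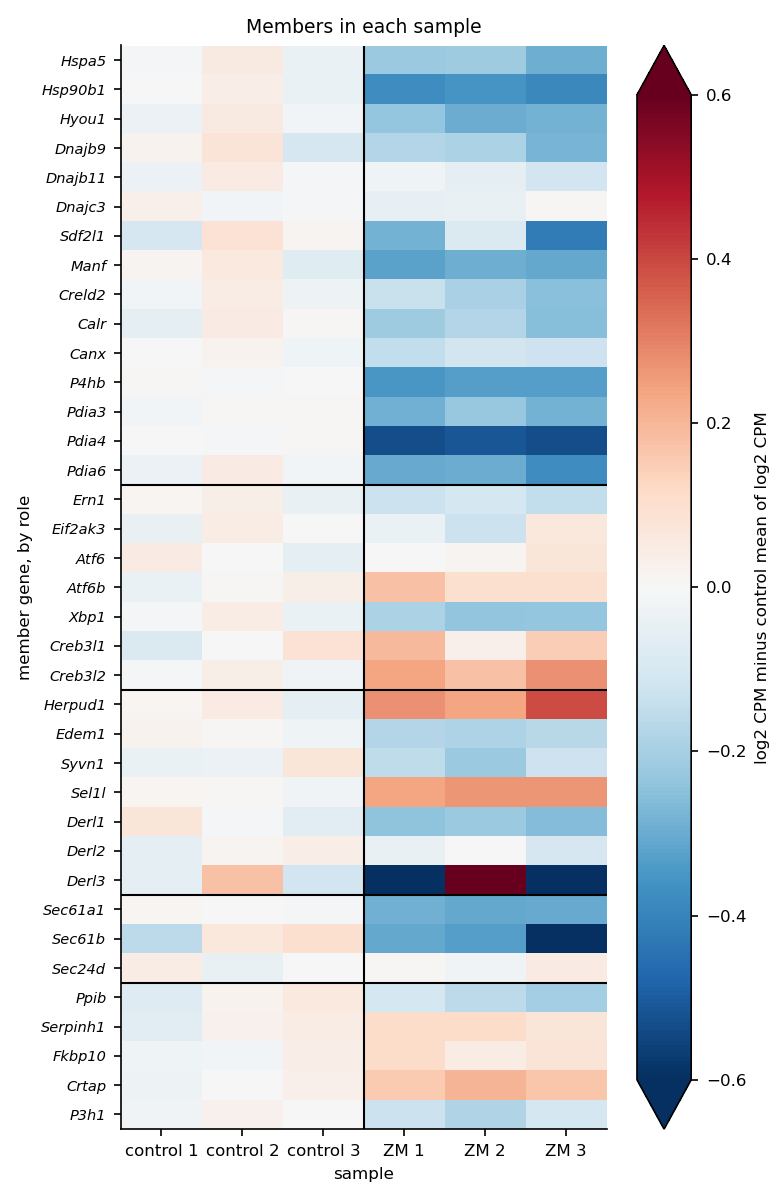
Log2 CPM of each member in each sample (colour), minus its control mean of log2 CPM, with members in rows by role and samples in columns. In the upper block of 15 chaperones and isomerases the ZM columns are lower without overlap for 12 genes, beside 26.4% of all genes tested. Derl3, at 6 to 20 counts per library, is the row with the widest spread.

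Of the procollagen folding genes 80% were called, beside 45.3% of all genes tested. They were split as well, with 2 of 5 higher, 2 lower and 1 not called (median log2 fold change 0.08). That split depended on the scaling: with library size alone 3 were higher, 0 lower and the median was 0.14. Together these 5 genes averaged 635 ± 22.3 CPM per kilobase without ZM and 672 ± 7.55 with it (SD, n = 3 each), of which Serpinh1 made up most. Serpinh1 encodes HSP47, a chaperone that binds only collagen and escorts the triple helix to the Golgi (chr7:99345376-99353239, minus strand). It had 388, 415 and 421 CPM per kilobase in control and 441, 441 and 429 in ZM samples. The groups were separate, the rise was 7.03% (0.10 ± 0.03, adjusted p = 0.0308, edgeR), and the call was lost when control sample 1, the lowest, was left out (0.06, adjusted p = 0.15), or ZM sample 1 (0.103) or ZM sample 2 (0.0767).

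Crtap, Ppib and P3h1 encode the complex that 3-hydroxylates prolines of procollagen and isomerises its prolyl bonds, and loss of any of them is known to cause brittle bone disease in humans. The scaffold Crtap (chr9:114375134-114390675) had 87.4, 89.6 and 91.3 CPM per kilobase in control and 99.7, 103 and 100.4 in ZM samples. It rose with separate groups (0.18 ± 0.03, adjusted p = 4.44e-04, edgeR). The enzyme P3h1 had 40.3, 41.6 and 40.7 CPM per kilobase in control and 37.4, 36.0 and 37.9 in ZM samples. It fell (-0.14 ± 0.04, adjusted p = 0.00382, edgeR), but was not called when library size alone set the scale (adjusted p = 0.0777). The cyclophilin Ppib had 29.9, 32.0 and 32.9 CPM per kilobase in control and 29.3, 28.3 and 27.4 in ZM samples. It fell too (-0.16 ± 0.04, adjusted p = 0.00637, edgeR), again not with library size alone (adjusted p = 0.0759), and the opposite-strand gene Snx22 overlaps 24.96% of its exon length, so its level is uncertain.

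Fkbp10, the prolyl isomerase FKBP65 that supports HSP47 and collagen crosslinking, had 63.6, 64.2 and 66.7 CPM per kilobase in control and 70.1, 66.8 and 68.4 in ZM samples. The groups were separate by a narrow gap and it was not called (0.08 ± 0.03, adjusted p = 0.0804, edgeR). It passed when library size alone set the scale (0.14, adjusted p = 0.00465), in limma on FPKM (between 0.0139 and 0.0404) and when control sample 3 was left out (0.0499). The opposite-strand gene Nt5c3b overlaps 6.58% of the Fkbp10 exon length.

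The ratio of HSP47 to BiP transcripts does not depend on the scaling of the libraries. The level of Serpinh1 was 1.567, 1.602 and 1.729 times that of Hspa5 in control samples and 2.05, 2.05 and 2.10 times in ZM samples, on CPM per kilobase, with all ZM samples above all control samples. Col1a1, a type I collagen gene, was at 1355 ± 54.3 and 1337 ± 41.2 CPM per kilobase (SD, n = 3 each). Its log2 fold change was -0.02 (adjusted p = 0.70, edgeR), and above 0 (0.04) when library size alone set the scale. Relative to Col1a1, the level of P4hb was 30.1% ± 1.25 in control and 24.2% ± 0.938 in ZM samples, and that of Serpinh1 was 30.1% ± 0.846 and 32.7% ± 0.966. Col1a2 was at 531 ± 13.9 and 504 ± 19.4 CPM per kilobase (adjusted p = 0.0848, edgeR). Of 7 fibrillar collagen chains 3 fell and 2 rose (71.4% called, beside 45.3% of all genes tested), with Col5a3 (-1.16 ± 0.04) and Col5a2 (-0.26 ± 0.03) lower and Col11a1 (0.45 ± 0.04) and Col5a1 (0.14 ± 0.04) higher.

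The other ER enzymes that modify collagen had a median log2 fold change of 0.17, with 6 of 11 tested genes higher and 2 lower (72.7% called, beside 45.3% of all genes tested). P4hb pairs with alternative catalytic alpha subunits to form prolyl 4-hydroxylase. While P4hb fell, P4ha2 rose from 15.7 ± 0.912 to 27.6 ± 0.546 CPM per kilobase (0.81 ± 0.04, adjusted p = 1.07e-10, edgeR) and P4ha3 from 43.5 ± 0.312 to 60.0 ± 2.35 (0.46 ± 0.04). The third alpha subunit, P4ha1, fell from 42.3 ± 0.292 to 35.1 ± 0.562 (-0.27 ± 0.03), and the lysyl hydroxylase Plod1 fell by 0.30 on the log2 scale.

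The remaining genes of the secretory pathway were read from lists, beside the background of 45.3% called over all genes. Of 23 genes of the translocon, signal peptidase and oligosaccharyl transferase 16 fell and 1 rose (73.9% called, median log2 fold change -0.20; 13 fell and 3 rose with library size alone). The signal peptidase subunit Spcs3 fell by 0.33 and the translocon-associated Ssr4 by 0.30, and the catalytic transferase subunit Stt3b rose by 0.30. Of 19 genes of the COPII coat, cargo receptors and KDEL receptors 11 fell and 2 rose (68.4% called, median -0.11; 7 fell and 5 rose with library size alone). Of the receptors that return KDEL-bearing chaperones such as BiP from the Golgi, Kdelr3 fell from 65.0 ± 1.16 to 51.3 ± 1.42 CPM per kilobase (-0.34 ± 0.04, adjusted p = 1.56e-06, edgeR) and Kdelr2 fell by 0.26 on the log2 scale. The remaining receptor, Kdelr1, named here after its values were seen, was at 68.5 ± 1.67 and 71.0 ± 0.896 CPM per kilobase (0.05 ± 0.04, adjusted p = 0.261, edgeR), and was called higher when library size alone set the scale (adjusted p = 0.0198). Mia3, the cargo receptor TANGO1 that loads procollagen into COPII carriers, rose by 0.13 ± 0.03.

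Of 24 other folding enzymes and cochaperones 10 fell and 4 rose (58.3% called, median -0.06; 6 fell and 4 rose with library size alone, median 0.00). The prolyl isomerase Fkbp11 fell by 0.70 ± 0.06 and Fkbp2 by 0.49 ± 0.11, while Fkbp9 rose by 0.40 ± 0.03 and Dnajc1 by 0.15 ± 0.04. Of 17 other ERAD genes 3 fell and 4 rose (41.2% called, median -0.00; 1 fell and 7 rose with library size alone, median 0.06), with Herpud2 (0.36 ± 0.04) and the lectin Os9 (0.21 ± 0.04) higher and Ube2g2 (-0.20 ± 0.04) and Nploc4 (-0.13 ± 0.04) lower; library size alone did not call Nploc4 (adjusted p = 0.139).

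The PERK and ATF4 arm had 4 of 10 genes higher and 1 lower (50% called, median 0.12; 6 rose and 1 fell with library size alone). Atf4, the factor translated when PERK or other kinases phosphorylate eIF2 alpha, rose from 68.7 ± 0.810 to 80.0 ± 2.51 CPM per kilobase (0.22 ± 0.03, adjusted p = 6.81e-05, edgeR). Atf3 went from 5.50 ± 0.937 to 10.98 ± 0.791 (0.99 ± 0.11) and Sesn2 from 10.4 ± 0.285 to 16.3 ± 0.0572 (0.65 ± 0.04), and both rose, as did Trib3 (0.43 ± 0.12), which was low at 2.00 and 2.69 CPM per kilobase. The stress factor Ddit3, also called CHOP, was at 11.7 ± 0.369 and 11.3 ± 0.198 CPM per kilobase (adjusted p = 0.472, edgeR), Ppp1r15a, which reverses eIF2 alpha phosphorylation, at 15.7 ± 1.17 and 14.5 ± 0.635 (adjusted p = 0.0759, edgeR), and Chac1 at 4.39 ± 0.386 and 5.04 ± 0.274 (adjusted p = 0.0935, edgeR). Chac1 passed when library size alone set the scale (adjusted p = 0.0287), and Ddit3 then had a fold change of 0.00. Eif2s1, the gene of eIF2 alpha, fell by 0.29 on the log2 scale.

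Among the partners of the sensors 1 of 10 tested genes rose and 2 fell (30% called, median 0.01; 3 rose and 2 fell with library size alone). Mbtps1, the protease that cuts ATF6 and its CREB3 relatives in the Golgi, rose from 18.2 ± 0.155 to 23.6 ± 0.329 CPM per kilobase (0.38 ± 0.03, adjusted p = 5.82e-08, edgeR). Rtcb, the ligase that joins spliced Xbp1 RNA, fell by 0.23 and the cell death factor Bak1 by 0.33 on the log2 scale.

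**Figure D5:**
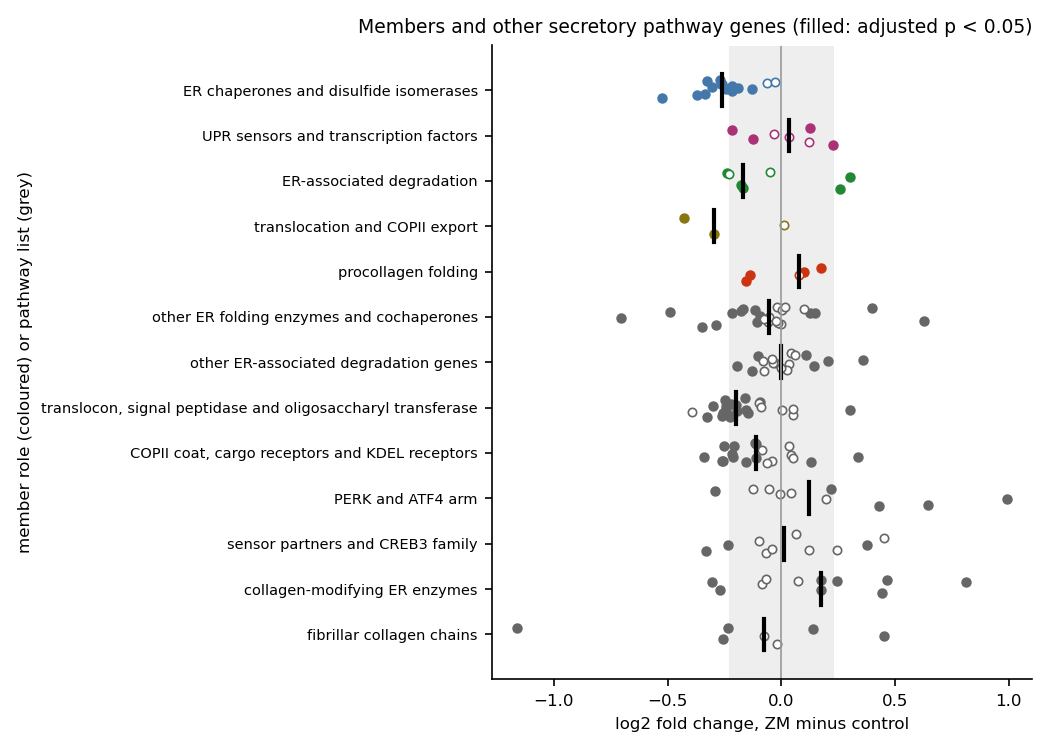
Log2 fold change (x axis, ZM minus control) of each tested gene of the 5 member roles (coloured) and of the 8 other lists (grey), with filled points at an adjusted p under 0.05 and a black bar at each median. The shaded band spans the lower to upper quartile of all genes tested, -0.23 to 0.23; the medians of the chaperones (-0.26) and of the translocation genes (-0.30) lie left of it.

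Set beside the promoter elements, 7 of the 9 members with an ERSE fell and 0 rose (Hspa5, Hsp90b1, Creld2, Calr, Canx, Pdia6 and Syvn1), with a median of -0.22, and Dnajc3 and Derl3 were not called. Over all genes tested 22.4% fell, and 7 of these 9 members belong to the chaperones and isomerases, of which 13 of 15 fell. Of the 21 members with a window and no ERSE 11 fell and 6 rose (median -0.13), and Pdia4, with the largest fall, was among them. Of the 2 genes with an ERSE-II, Herpud1 rose and Dnajb11 was not called. Outside the members 28 genes held an ERSE. Of the 14 that were tested, 1 fell and 3 rose (median 0.14). Those called were low in control samples: Tdrd9, which fell, at 0.0924 CPM per kilobase, and Acacb, Xlr3b and Pan2, which rose, at 0.195, 0.859 and 2.22. The fallen members with an ERSE ranged there from 11.1 (Syvn1) to 459 (Calr), so the levels are unlike. Whether the element bears on these changes was not tested.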

How the data were processed

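The members and gene lists were chosen with earlier results of these data known. Per the submitters' processing notes, the tools were HISAT2 2.2.1, featureCounts 2.0.3 of Subread and DESeq2, on mm10; annotation, strand and multi-mapping settings: not given in the sources used here. Raw whole-number counts per gene were deposited, per the file headers. The authors' FPKM proved to be count over column total over a fixed gene length. For 100% of genes this length lay within 0.01 of a whole base, and it served to express levels as CPM per kilobase. The libraries held 42721326 to 69867931 counts, so 3 counts, the floor used, are 0.0429 to 0.0702 CPM (counting error only).

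R 4.3.3 with edgeR 4.0.16 tested the 17533 genes kept by filterByExpr (TMM, quasi-likelihood F test, Benjamini-Hochberg adjustment, threshold 0.05, group as the only term). SE stands for |log2 fold change| over the root of F. No pair of libraries was a duplicate (chi-square per degree of freedom 4.30 to 6.89 between libraries of 1 group). The tests were checked on simulated data. Alternatives used DESeq2 1.42.0 and limma 3.58.1 on log2(FPKM + 1) and log2(FPKM + 0.1), other scalings and filters, a replicate block and each sample left out.

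All members are named. In other lists the named genes are up to 2 risen and 2 fallen with the largest change, at 5 FPKM or more in the higher group, plus Col1a1, Col1a2, Atf4, Ddit3, Ppp1r15a, Trib3 and Chac1. Listed Ero1l and Ero1lb were found as Ero1a and Ero1b. Positions are from GENCODE M21 and sequences from RefSeq on GRCm38.p6. Near-identical transcripts (at least 97% over 100 bases) were found with BLAST+ 2.17.0. Marker lists of chondrocytes, adipocytes and endothelium were also read: 2 of 3 tested chondrocyte markers, 1 of 1 adipocyte marker and 0 of 3 endothelial markers rose, and 1 endothelial marker, Cdh5, fell. Lep, Cidec and Emcn were not analysed here. Of the osteoblast list 4 of 8 tested genes rose and 1, Spp1, fell.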

Additional observations from a re-analysis of the deposited data

How the results depend on the processing

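Of the 28 called members 17 kept their call and direction (13 lower, 4 higher) under the other scalings and filters, DESeq2, limma on FPKM, the replicate block and each sample left out; 11 lost the call in at least 1 of these, and 0 of the 28 changed sign. Asking for a fold change of at least 1.2 left 9 members lower, 1 higher and 5199 of all genes. On log2(FPKM + 1) with no filter 13 members were lower. Leaving out a sample gave 19 to 22 members lower, 4 to 8 higher and 6813 to 7712 of all genes called. Members that were not called changed sign near 0: Dnajc3 (0.031), Eif2ak3 (0.028) and Derl2 (0.012) with library size alone; 0.030, 0.023 and 0.011 for these genes on log2(FPKM + 1), with or without a filter; and 0.031, 0.026 and 0.012 on log2(FPKM + 0.1). Over the fits that leave out a sample, Eif2ak3 ranged from -0.082 to 0.014, Sec24d from -0.010 to 0.035 and Derl3 from -1.15 to 0.14. The cause was not tested. Samples with the same number did not deviate together (correlations -0.04, 0.06 and -0.01), and with a replicate block 21 members fell, 6 rose and 7752 genes were called; of the members only Sec61b lost its call (adjusted p = 0.123). Canx, Syvn1, Ppib and P3h1 lost theirs on FPKM as well as with library size alone. Derl3 is limited by depth.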
